A study of Mus musculus with 4 samples.

Results

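Sites at splice sites are the called m6A positions that the deposited tables annotate as a 3' splice site or a 5' splice site, with or without the suffix for noncoding RNA, and every such row was kept. They number 452 of the 55333 distinct positions called in either mouse, 330 in the 3' class and 122 in the 5' class. In mouse 1 they were 339 of 45668 called sites, and in mouse 2 they were 338 of 47747. The data are from m6A-eCLIP, in which RNA is crosslinked to an antibody against m6A and the position where reverse transcription stops is mapped to 1 nucleotide. The cells were bone marrow-derived macrophages (BMDM) of wild-type mice, and all of them had received lipopolysaccharide (LPS), a bacterial trigger of innate immune signalling, for 3 h, so no untreated cells entered. There were 2 mice, each with 1 immunoprecipitated (IP) and 1 input library made from poly(A)-selected RNA. The labels give neither strain, age nor sex, and NTC, a term in the names of both tables, is left unexplained there. All 9 macrophage markers listed had called sites in both mice, none of 5 lymphocyte markers had one in either, and 2 of 6 neutrophil and mast cell markers did. Of 4 dendritic cell markers 1 had a site, in mouse 2 only. None of 5 markers of stroma, endothelium and erythroid cells had one in either mouse. In bulk RNA, a few such cells and a low level in every cell cannot be told apart.

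An intron begins at its 5' splice site, the donor, which usually opens with the letters GT, and ends at its 3' splice site, the acceptor, which usually closes with AG. Spliced mRNA lacks the intronic side of both, unless an intron is retained or another splice site is used. m6A is written on adenosine by the METTL3 and METTL14 methyltransferase, mostly within the letters DRACH (A, G or T; A or G; A; C; A, C or T), and it is known to be frequent in long exons and near stop codons and sparse next to exon junctions. The sources used here do not give the width of the window by which the splice classes were assigned, or the transcripts used.

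Sequence could be read for 31 of the positions, 10 in the 3' class and 21 in the 5' class, which lie in windows from 250 bases before to 50 bases after a gene's start in RefSeq's GRCm38.p6, the assembly with mm10's coordinates. The sequences are shown because they give the letters around members of each class. They are a sample of members near a RefSeq start, not of the classes as a whole. That start need not be the start of the named gene's whole RefSeq interval, which is used further below. The printed sites of Tbxas1, Cd200r4, Cd47 and Ms4a4c lay 54817, 9076, 4165 and 2941 bases from the latter. Each reads 5' to 3' on the gene's strand, with the called adenosine in capitals. For the 3' class these positions are shown:
Tbxas1, chr6:38918961-38918990, plus strand: gcttccttcctctttAtaaagaaaggcaca
Ms4a4c, chr19:11407643-11407672, plus strand: aggggaagtcctggcAcaattaaccagtct
Hmgb1, chr5:149053031-149053060, minus strand: aggcgcgctggctggAgagtaatgttacag
Cd200r4, chr16:44820711-44820740, plus strand: ctttttttcctgtgaAggcttagtcatcca
For the 5' class, the donor-like letters GTAAG or GTGAG are also in capitals where the printed bases hold them:
Tfdp1, chr8:13338795-13338824, plus strand: gctcggcccaggGTGAGcccgcgtcccggc
Gm5431, chr11:48902105-48902134, minus strand: aaggacaaggaagGTAAGattcagatctag
Cd47, chr16:49855478-49855507, plus strand: gggccGTGAGcagagAgtgcaacccgcgca
Senp3, chr11:69681924-69681953, minus strand: cgggtgtgacgcactAattgcgcgccgcca
Ubxn4, chr1:128244135-128244164, plus strand: ctgatacttccttccActtcctggagtcgg

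In the Tfdp1 and Gm5431 sequences the called adenosine is the A inside GTGAG or GTAAG. The fold, which is the authors' ratio of IP to input read starts at a site, was 12.03 and 4.24 for Tfdp1 and 8.02 and 4.17 for Gm5431 in mouse 1 and mouse 2. Of the 3' sequences, that of Tbxas1, thromboxane synthase, had folds of 20.1 and 17.3, and that of Cd200r4, a receptor of the CD200 receptor family, 1.91 and 1.93. Every member in these windows stood on an adenosine, 28 of 28 in mouse 1 and 26 of 26 in mouse 2, and so did all 5009 and all 5221 called sites in the windows. The letters GTAAG or GTGAG, searched on the sense strand only, were anywhere in 9 of the 16 distinct windows that held the 21 members of the 5' class (56.2%). They were in 42.3% of all 32851 windows. They lay within 50 bases of 8 of 18 and 6 of 18 members of the 5' class (44.4% and 33.3%), beside 14.4% and 14.6% of all called sites in the windows. The called adenosine was inside them for 2 of 18 in each mouse, the 2 printed above, beside 29 of 5009 and 27 of 5221 called sites. DRACH with its A within 2 bases of the called position was seen for 0 of 25 members of mouse 1 with enough sequence on both sides, which allows a share of up to 12.0%, and for 1 of 24 of mouse 2. The share among all called sites in the windows was 10.9% and 10.8%, so no difference was detectable within 2 bases with so few members. Within 5 bases the members' counts stayed at 0 of 25 and 1 of 24, beside 19.6% and 19.5% of all called sites, which is above the limit of 12.0% for mouse 1. Several of these members share a window, and the difference was not tested. A match of letters is a description of the window and no evidence of a modified base or of splicing there.

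The 2 classes had different folds in both mice. A site was called enriched at a fold of at least 8, that is a log2 fold of at least 3. In the 3' class 58 of 238 sites were enriched in mouse 1 (24.4%, exact 95% interval 19.1 to 30.3) and 44 of 256 in mouse 2 (17.2%, 12.8 to 22.4), against 81.7% and 79.1% of all called sites. In the 5' class 77 of 101 were enriched in mouse 1 (76.2%, 66.7 to 84.1) and 57 of 82 in mouse 2 (69.5%, 58.4 to 79.2). As means over the mice these shares were 20.8% ± 5.08 (SD, n = 2) in the 3' class and 72.9% ± 4.76 (SD, n = 2) in the 5' class, with 80.4% ± 1.88 (SD, n = 2) over all called sites. Within a mouse the 3' share minus the 5' share was -51.9 and -52.3 percentage points, a gap larger than the spread between mice. At a fold of at least 16, 6.72% and 6.25% of the 3' class and 31.7% and 28.05% of the 5' class remained, beside 47.4% and 46.3% of all called sites. With 2 mice no test of these differences was run, and the intervals cover counting error only.

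The median fold of the 3' class was 2.58 in mouse 1 (quartiles 1.41 and 7.36) and 2.26 in mouse 2 (1.35 and 5.60). That of the 5' class was 11.03 (8.02 and 18.1) and 10.6 (6.86 and 17.2), and that of all called sites was 15.04 and 14.4. Both classes spanned a wide range, from 0.363 to 101 in the 3' class and from 0.644 to 58.2 in the 5' class of mouse 1. The enriched share of the 5' class lay close to that of intronic sites. Of sites annotated as proximal intron 72.1% and 68.5% were enriched, and of those in distal introns 74.5% and 70.7%. Sites in noncoding exons lay as close, at 76.1% and 74.6%, so the likeness was not particular to introns. Sites in 5' UTRs had 64.7% and 61.9% enriched, with median folds of 10.03 and 10.1. Low folds like those of the 3' class were thus not the rule among sites annotated as intronic.

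**Figure D1:**
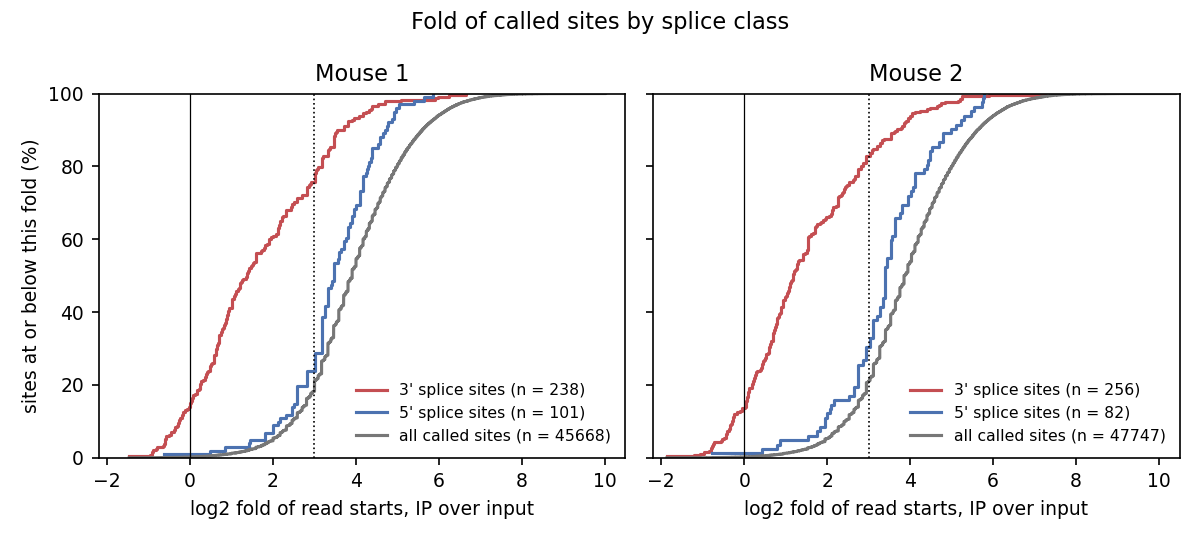
Cumulative share of sites (y axis, percent) at or below a given log2 fold of IP over input (x axis) for the 3' splice class, the 5' splice class and all called sites, 1 panel per mouse; the vertical lines mark a fold of 1 and a fold of 8. In both mice the 3' curve lies to the left of the others over most of its height, and 24.4% and 17.2% of its sites reach a fold of 8. At the top, the highest 3' folds of 101 and 151 exceed the highest 5' folds of 58.2 and 54.9.

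A fold below 1, with fewer read starts in the IP than in the input on the authors' scale, was rare over all called sites: 93 in mouse 1 (0.204%) and 118 in mouse 2 (0.247%). The 3' class held 33 and 35 of them, which is 13.9% (9.74 to 18.9) and 13.7% (9.71 to 18.5) of its sites. It thus held 35.5% and 29.7% of all sites below 1 while being 0.521% and 0.536% of the called sites. The 5' class held 1 in each mouse, at the same position of Actb. At a fold below 2 the 3' class had 98 sites (41.2%) in mouse 1 and 113 (44.1%) in mouse 2, the 5' class 3 and 4, and 98.9% and 98.7% of all called sites had a fold of at least 2.

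The score, the authors' own value for each site, with every listed site above 10, differed little between the classes. Its median was 21.5 and 21.2 in the 3' class, 20.1 and 22.3 in the 5' class, and 31.4 and 31.9 over all called sites. Within bands of score the classes kept their order in both mice. Among sites scored from 10 to 15, 19.4% and 7.81% of the 3' class and 55.2% and 35% of the 5' class were enriched. Among sites scored 50 or more, the shares were 53.3% (8 of 15) and 61.5% (8 of 13) in the 3' class. All 12 and all 11 members of the 5' class in that band were enriched, beside 97.7% and 97.5% of all called sites.

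**Figure D2:**
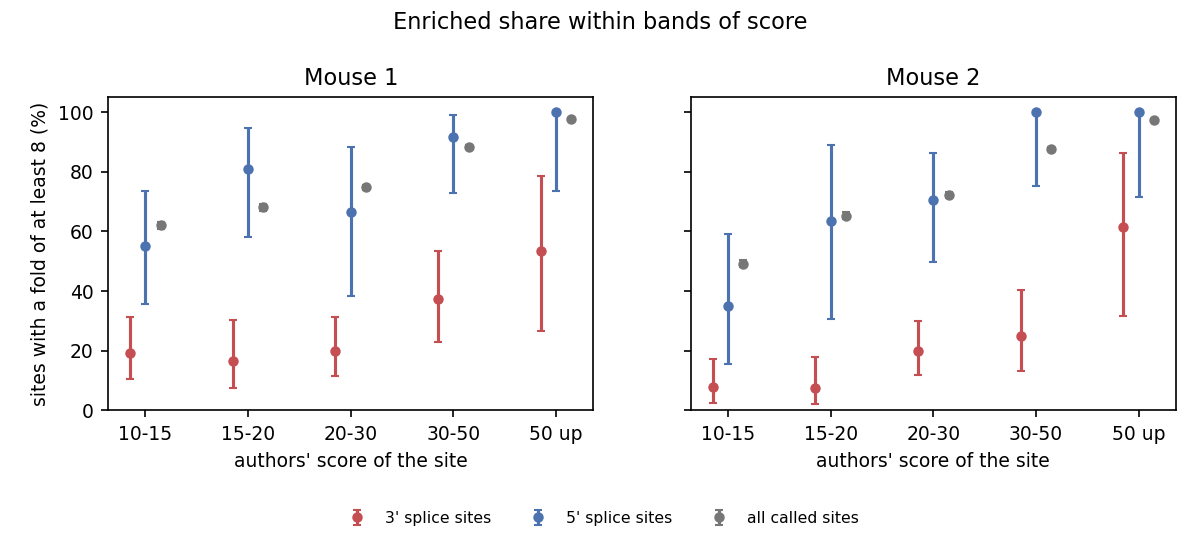
Share of sites with a fold of at least 8 (y axis, percent) within bands of the authors' score (x axis), with exact 95% binomial intervals as bars, for both splice classes and all called sites, 1 panel per mouse. The 3' class has the lowest share in every band of both mice, from 7.41% to 61.5%.

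The classes also differed in the form of the fold. After division by a constant of each table (1.003 and 0.963), 27.3% and 22.3% of the 3' folds were whole numbers within 1e-06. Of the 5' folds 72.3% and 65.9% were whole, and of all folds 62.1% and 62.0%. A whole number is what a ratio with 1 read start in the input gives, but no read numbers were used here, so the depth behind a fold is unknown.

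Most members were called at the same nucleotide in both mice. In the 3' class this held for 167 of 238 sites of mouse 1 (70.2%) and 167 of 256 of mouse 2 (65.2%), and in the 5' class for 63 of 101 (62.4%) and 65 of 82 (79.3%). Over all called sites the shares were 83.4% and 79.8%. Members called in 1 mouse only had lower scores, with medians of 15.7 and 15.3 against 25.7 and 24.9 in the 3' class, and of 14.99 and 12.9 against 32.6 and 25.5 in the 5' class.

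Of the positions called in both mice, 170 were in the 3' class of at least 1 table. Of these 30 (17.6%) were enriched in both mice, 118 (69.4%) in neither, and 15 (8.82%) had a fold below 1 in both. Over all 38082 positions called in both mice the shares were 76.9%, 7.99% and 0.121%. The corresponding 5' positions numbered 67, of which 47 (70.1%) were enriched in both mice, 9 (13.4%) in neither and 1 (1.49%) was below 1 in both. The log2 folds of the 2 mice followed each other with r = 0.88 and rho = 0.87 over the 170 positions, with r = 0.72 and rho = 0.58 over the 67, and with r = 0.74 and rho = 0.70 over all 38082. These correlations are across sites that share 2 pairs of libraries, and sites are not replicates. The median absolute difference between mice was 0.39 on the log2 scale in the 3' class, 0.56 in the 5' class and 0.56 over all positions. The tables gave 6 positions of each class another annotation in the other mouse. Irf8 is one of them, a 3' splice site in mouse 1 and a distal intron in mouse 2, and Syncrip is another, in a 3' UTR in mouse 1 (fold 30.1) and at a 5' splice site in mouse 2 (fold 10.1). Timm10b, with 60.2 and 16.1, was annotated in the same way.

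**Figure D3:**
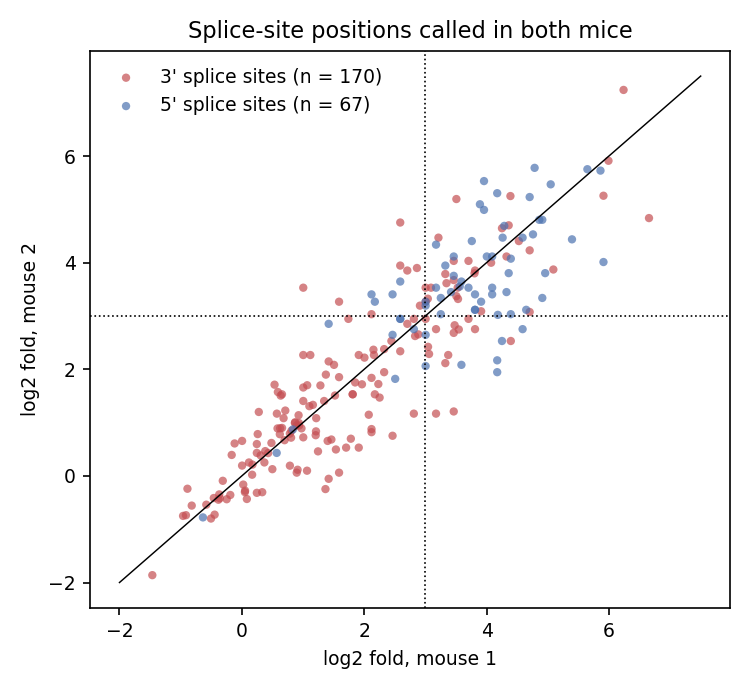
Log2 fold in mouse 1 (x axis) against log2 fold in mouse 2 (y axis) for the 170 positions of the 3' class and the 67 of the 5' class called in both mice, 1 point per position. The 3' points run along the diagonal from below a fold of 1 up to Dock8 at 75.5 and 151, and most 5' points lie above a fold of 8 in both mice.

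Among the 3' members with the lowest folds was Ybx1, which encodes a cold-shock domain protein that binds mRNA. Its site at chr4:119293807 on the minus strand stood at 0.363 in mouse 1 and at 0.275 in mouse 2, the lowest fold of all called sites in both tables. S100a10, the annexin A2 partner, had 0.514 and 0.594 at chr3:93560940. A neighbouring 3' member of S100a10, at chr3:93560942, lay above 1 in both mice, with 1.75 and 1.80. Peli1, a ubiquitin ligase of Toll-like receptor signalling, had 0.531 and 0.600, and Oga, the enzyme that removes O-GlcNAc, 0.567 and 0.680. The site in Ifit1, an interferon-induced protein that binds viral RNA, had 0.705 and 0.574 at chr19:34647469, and that of Irf8, a transcription factor of the myeloid lineage, 0.735 and 0.604. The 15 positions below 1 in both mice also included Csf1, the macrophage growth factor, at 0.806 and 0.938, Ctsz, a lysosomal cathepsin, at 0.728 and 0.750, and Arpc2, an Arp2/3 subunit, at 0.780 and 0.748. The other positions were in Cox6b1, Lpxn, Map3k3, Metrnl, Selplg and the joined entry Tnfsfm13|Tnfsf12, with Lpxn at 0.540 and 0.846.

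A low fold went with a high score at some of these positions. Btg1, an antiproliferative gene, had one of the highest scores of the 3' class, 69.9 and 77.1, with folds of 1.498 and 1.85. In Ifit1 the score was 37.7 and 39.8. Such sites are listed by the authors although their IP held little more, or less, signal than the input.

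At the other end of the 3' class was Dock8, a guanine nucleotide exchange factor needed for leukocyte migration, whose site at chr19:25065386 on the plus strand reached 75.5-fold in mouse 1 and 151-fold in mouse 2. Its scores of 120 and 119 were the highest of the class. Polg, the catalytic subunit of the mitochondrial DNA polymerase, had 63.7 and 60.2, and Slc27a1, a fatty acid transporter, had 101 and 28.6, which differ by more than 1 log2 unit between mice. Rab28, Cdk11b and Psph followed with 21.0 and 38.03, 20.6 and 26.0, and 26.1 and 18.8. The members with the noncoding suffix were 6 and 5 sites, of which 4 and 3 were enriched, led by the predicted gene Gm6916 at 60.2 and 38.2. Further sites with the suffix were those of 4930430E12Rik, at 34.1 and 14.6 and at 11.03 and 12.8, and of Slfn10-ps, at 8.02 in mouse 1. Nearest to the limit by their mean, predicted genes aside, were Rapsn, with 7.52 and 9.15, and Exoc3l4, with 8.02 and 7.70.

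The 5' class had few low members. Actb, cytoplasmic beta-actin, had 0.644 and 0.583 at chr5:142905480 on the minus strand. Cd47, the signal that restrains phagocytosis and whose sequence is printed above, had 1.78 and 1.83. Leaving predicted genes aside, next came Tpbg at 5.68 and 3.53, the SUMO protease gene Senp3 at 5.52 and 6.26, Dgcr2 at 4.51 and 9.63 and Ankrd28 at 4.35 and 10.6. Among predicted genes, a position of Gm6166 had 1.48 in mouse 1, where it was annotated as noncoding exon, and 1.35 in mouse 2. Another position of Gm6166 was in the 5' class of mouse 1, with 1.40. A site of Gm5431 had 2.67 and 7.22. Hipk2, with 8.02 and 9.15, and Hk3, with 5.52 and 10.6, lay nearest to the limit by their mean among the genes that are not predicted.

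Among the highest 5' members was Unc93b1, the chaperone that carries nucleic acid-sensing Toll-like receptors to endosomes. It had 58.2 and 53.0 at chr19:3936473 and 33.1 and 44.3 at chr19:3936514, both on the plus strand. Ifih1, which encodes the cytosolic RNA sensor MDA5, had 27.6 and 54.9 at chr2:62634980 and 30.1 and 27.9 at chr2:62634963. Zbp1, a sensor of Z-form nucleic acid, had 26.1 and 37.6. Tfdp1, the partner of E2F factors, had 50.1 and 53.9 at chr8:13338851, downstream of the Tfdp1 site printed above. The highest scores of the 5' class were those of Ak7, 73.8 and 117, with folds of 15.5 and 46.2, and of Mid1, 83.3 and 98.9, with folds of 15.5 and 31.8. Of the members with the noncoding suffix, 7 and 5 sites, 4 in each mouse were enriched. They included Slc39a7 at 10.6 in mouse 2 and Gm13033 at 10.03 in mouse 1.

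The interferon response list, 53 genes of antiviral sensing and effectors, had members in both classes. Its 3' members numbered 9 in each mouse, of which 2 and 1 were enriched and 2 and 4 had a fold below 1, with a median of 1.56 and 1.14. In the 3' class as a whole 24.4% and 17.2% were enriched, and of all called sites of the list 86.8% and 83.0%. Beside Ifit1 and Irf8, low values were found at Isg15, the ubiquitin-like modifier (0.592 in mouse 2), Parp9 (0.571 in mouse 2), Irf5 (0.794 in mouse 2), Slfn5 (1.29 and 1.19) and Xaf1 (1.72 and 1.14). Oas1a, an enzyme of the oligoadenylate synthetase family, had 2.44 and 3.24. Gbp5, a guanylate-binding GTPase, was the exception in both mice at 10.2 and 12.3. The list's 6 members of the 5' class were all enriched in each mouse, with a median of 26.8 and 24.8. Besides Ifih1 and Zbp1 they were Daxx (42.1 and 21.7), Irf5 (15.04 and 9.63) and Oasl1 (10.7 and 10.9). This holds for the listed genes only. Outside the list, the interferon-inducible gene Ifi203 had 5' folds from 3.51 to 25.8. The enriched share of the whole 5' class was 76.2% and 69.5%. All called sites of the list had a median fold of 23.7 and 23.3.

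The other lists had fewer members, and their counts stand beside enriched shares of 24.4% and 17.2% in the whole 3' class and 76.2% and 69.5% in the whole 5' class, from which so few sites cannot be told apart. Of the 47 genes of lysosome, phagocytosis and macrophage identity, the 3' class held 5 sites in each mouse with 1 enriched, that of the scavenger receptor Cd36 (16.8 and 15.98), beside Cd68 (1.05 in mouse 1), Mrc1 (1.16 in mouse 1) and Psap (0.791 in mouse 2). Its 5' sites, 2 and 1, were enriched: Fcgr1, the high-affinity IgG receptor, at 16.05 and 17.3, and the scavenger receptor Msr1 at 30.1 in mouse 1. The list of 56 genes of Toll-like receptor and NF-kB signalling had 1 site per class and mouse. The adaptor Traf1 had 1.35 and 1.35 in the 3' class. In the 5' class Tnfaip2 had 14.5 in mouse 1, and the cytokine signalling inhibitor Socs3 had 12.5 in mouse 2. The list is not complete, since Peli1 and Unc93b1, named above, and the IkB kinase gene Ikbke lie outside it. Ikbke had 5' folds of 18.1 and 19.1 in mouse 1 and of 4.49 and 5.78 in mouse 2. Splicing factors and RNA-binding proteins had 2 sites per mouse, all of the 3' class and none enriched, among them Hnrnpm (1.63) in mouse 1 and Prpf4b (2.17) and Ddx17 (1.13) in mouse 2. In the cytoskeleton and trafficking list none of the 3 and 4 sites of the 3' class was enriched. Tubb5 had 4.70 and 3.30 for the higher of its pair of sites and 1.90 and 2.20 for the other, and Lcp1 had 2.36 in mouse 2. The only 5' site of this list, that of Actb, was not enriched either, at 0.644 and 0.583. The translation list had Eif1, an initiation factor that helps select the start codon, at 8.52 and 11.6, and the cytokine list had Csf1 alone.

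Members were compared with the other called sites of the same gene, for members whose gene had a single name and at least 1 other site. A 3' site lay below the median log2 fold of the gene's other sites in 190 of 223 cases in mouse 1 (85.2%) and 212 of 241 in mouse 2 (88.0%), with a median difference of -2.62 and -2.61 on the log2 scale. A 5' site lay below in 55 of 93 (59.1%) and 56 of 79 (70.9%), with a median difference of -0.29 and -0.54. The 3' site was the highest site of its gene in 15 and 10 cases and the 5' site in 6 and 3. In Ifit1 the difference was -5.83 and -5.95, with 16 called sites in the gene in each mouse, while the Dock8 site lay above its gene's other sites by 2.24 and 4.14.

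**Figure D4:**
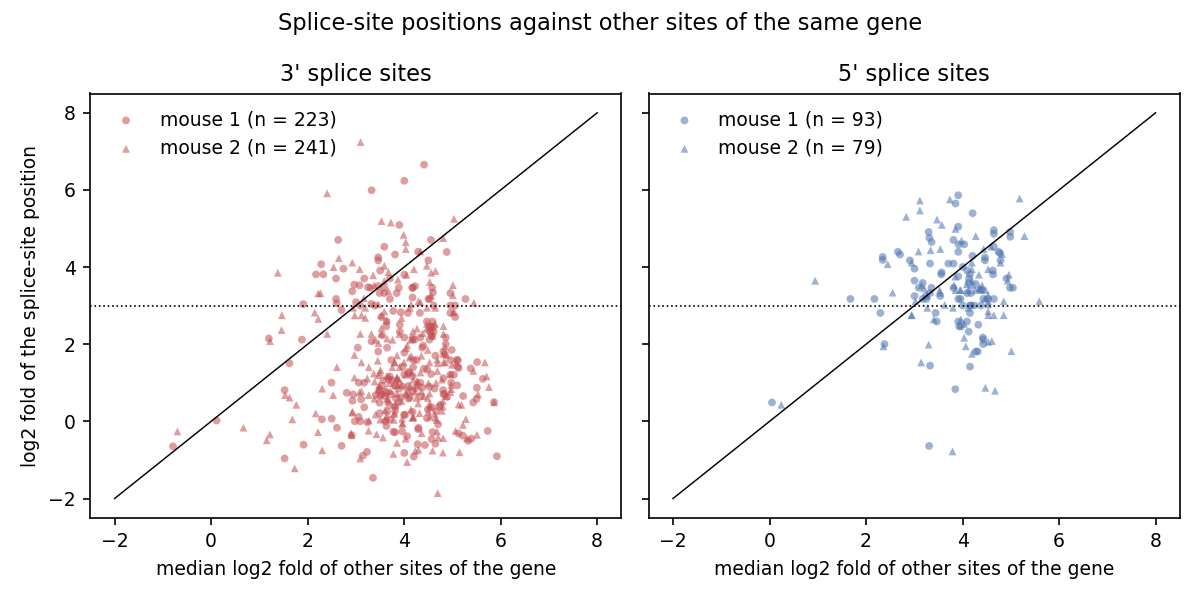
Log2 fold of each member (y axis) against the median log2 fold of the other called sites of its gene (x axis), with 1 panel per class and 1 symbol per mouse; the solid line marks equal values and the dotted line a log2 fold of 3. Of the 3' members 190 of 223 and 212 of 241 lie below the solid line, and of the 5' members 55 of 93 and 56 of 79.

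Some genes held a member of each class, which allows the classes to be set beside each other within a gene. There were 4 such genes in each mouse, and the highest 5' fold exceeded the highest 3' fold in all 4 both times. In Fcgr1 the values were 2.32 against 16.05 in mouse 1 and 2.12 against 17.3 in mouse 2, and in Senp3 2.67 against 13.5 and 0.963 against 21.2. Daxx had 1.56 against 42.1 and Mndal 0.984 against 19.2 in mouse 1, and Irf5 had 0.794 against 9.63 and Prdm2 6.42 against 10.6 in mouse 2. Of the 378 genes with a member, 323 had 1 member position. The predicted gene Gm5431 had the most, 6 positions of the 5' class, 3 of them in the promoter window from which its sequence is printed. Trpv2, a cation channel, followed with 5 positions of the 3' class between chr11:62575885 and chr11:62575956, at folds from 5.30 to 25.04. Exoc3l4 had 3 positions of the 3' class, at folds from 6.42 to 11.03, and Ifi203, an interferon-inducible gene, had 3 of the 5' class, at folds from 3.51 to 25.8. Such positions share their transcript and are not independent of each other.

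The classes differed in where exonic sites lay next to them. A called exonic site lay within 100 bases downstream of a 3' member, on the side of the next exon, in 94 of 238 cases in mouse 1 (39.5%) and 113 of 256 in mouse 2 (44.1%), mostly in coding sequence (78 and 90). None lay within 100 bases upstream in either mouse, which by counting error alone allows a share of up to 1.26% and 1.17%. The bases before a 3' splice site are intron by annotation, so this lack of exonic sites was largely set in advance. Where a downstream exonic site existed, the 3' member had the lower fold in 76 of 94 and 92 of 113 cases, with medians of 1.90 against 9.03 and of 2.20 against 11.6. For the 5' class an exonic site lay within 100 bases upstream in 15 and 16 cases and downstream in 6 and 9. The upstream pairs had closer medians, 15.04 against 18.1 and 12.04 against 12.3, and the 5' member was the lower in 9 of 15 and 7 of 16. The few downstream pairs had medians of 5.87 against 28.6 in mouse 1 and 10.1 against 6.93 in mouse 2. The order of these medians differed between mice, but within pairs the 5' member was the lower in 5 of 6 and 6 of 9 cases. The side of an exonic neighbour follows largely from the annotation, since the exon follows a 3' and precedes a 5' splice site. Exonic neighbours were not counted for all called sites, so these shares compare the 2 classes only.

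**Figure D5:**
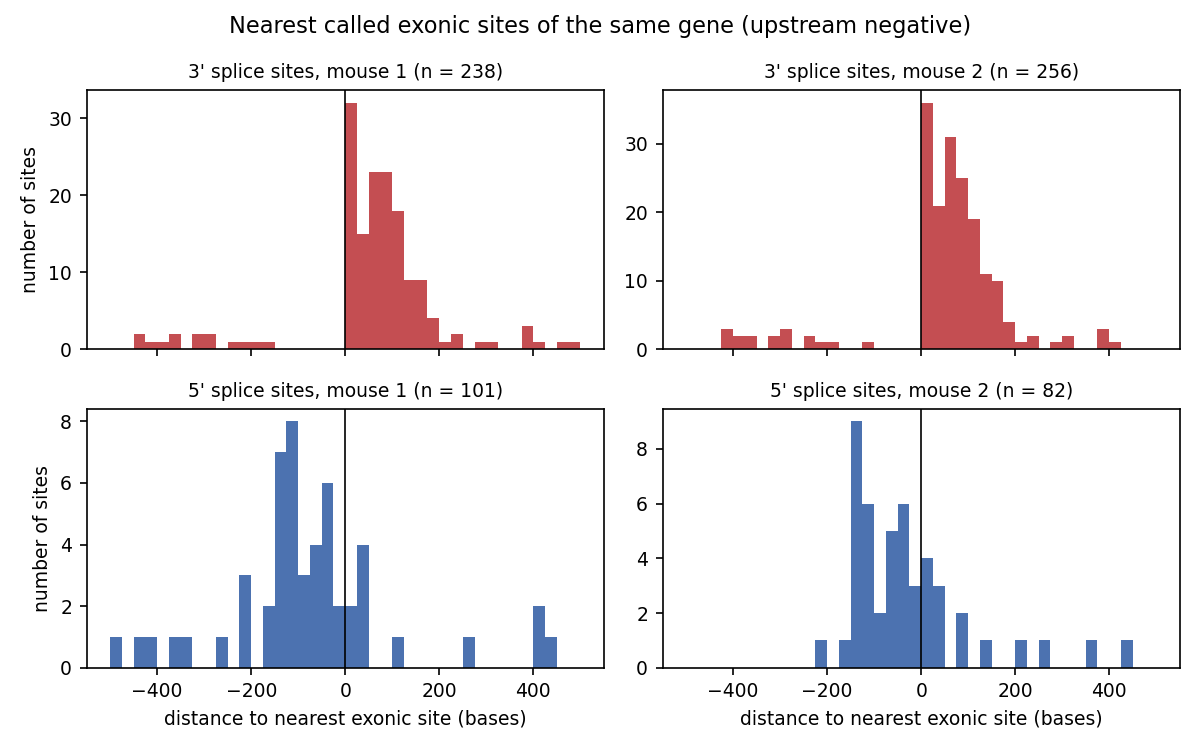
Number of members (y axis) by the distance in bases to their nearest called exonic sites in the same gene (x axis, upstream negative), with 1 panel per class and mouse. The 3' panels are filled just downstream of the member, where 94 and 113 have an exonic site within 100 bases, and the 5' panels mostly upstream.

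Along the RefSeq gene, from its start at 0 to its end at 1, 3' members had a median position of 0.723 and 0.765, and 5' members of 0.167 and 0.104. In the first 10% of the gene lay 43 of 101 and 40 of 82 members of the 5' class, but 22 of 230 and 19 of 249 of the 3' class. In the last 10% lay 5 and 4 of the 5' class and 55 and 74 of the 3' class. The 5' class had 13 and 14 sites within 200 bases of the gene's start, and the 3' class 6 and 5. Members of one class also lay near each other, with another member within 50 bases for 32 and 29 of the 3' and 38 and 27 of the 5' sites. Whether position along the gene or the number of introns bears on the difference in fold was not tested.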

How the data were processed

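m6A-eCLIP was done on BMDM of 2 mice, with 1 IP and 1 input library each. Tools named, per the submitters' processing notes, were STAR 2.6.0c, cutadapt 2.7 and UMI-tools 0.5.1, with the builds mm10 and hg38. The site caller, how the score is defined, and the annotation: not given in the sources used here. Each mouse has its own deposited table of sites of 1 base. The fold is the authors' ratio of IP to input read starts within a mouse, per the file headers. Each site also has a score computed by the authors, per the file headers. No read numbers were used, so depth is unknown and no fold has an interval.

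Rows were read with SciPy 1.17.1, NumPy 2.4.6 and pandas 2.3.3 under Python 3.11.15, and drawn with Matplotlib 3.10.9. The position is the end of the deposited interval, 1-based. A site was shared when strand and nucleotide matched. Sites with joined gene names were left out within genes. Shares have exact Clopper-Pearson 95% intervals, which cover counting error only. The scripts were tested on simulated data. No test across mice was run, since with 2 mice no exact test can pass a threshold of 0.05, and sites are not replicates. The distance to the splice junction needs an exon annotation of the files' build and was not computed, and sequence was read only in RefSeq's promoter windows.

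Members and gene lists were chosen with earlier results of these data known. Sites named were, per class and among positions called in both mice with 1 gene name other than a predicted gene, the 6 highest and 6 lowest by mean log2 fold, the 4 highest by score, those nearest the limit, the 4 genes with most members (predicted genes left out), up to 4 members with the noncoding suffix (predicted genes kept) and the 2 highest of each list. Other members of the lists, genes named as outside a list, and the remaining positions below 1 in both mice were named after their values were seen. So were genes with both classes, other predicted genes and the printed sequences. Alternatives covered the fold limit, a score of at least 20, the comparison sites within a gene and each mouse alone.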

Additional observations from a re-analysis of the deposited data

How the results depend on the processing

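Over 18 values of the enriched share, 8 of the median fold and 6 of the difference within genes, the 3' class lay below the 5' class each time. With a log2 fold limit of 1 in place of 3, the enriched share was 57.3% in the 3' and 96.1% in the 5' class, with a limit of 4 it was 6.49% and 29.9%, and with a score of at least 20 it was 27.5% and 85.3%. With that score the median fold was 2.99 and 14.8 and the share called in both mice 87.7% and 89.2%. Against the highest other site of the gene, the median difference was -4.23 and -1.98, and against sites outside both classes it was -2.74 in the 3' class. With sites called in both mice alone, the median folds were 2.84 and 12.8. Chosen after seeing the data, the same restriction gave an enriched share of 78.2% in the 5' class and shares below 1 of 11.7% and 1.56%, and removing each table's constant gave 13.4% below 1 in the 3' class.

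In 1 mouse at a time, the 3' class ranged from 17.2% to 24.4% enriched, 2.26 to 2.58 in median fold, 65.2% to 70.2% called in both, -2.62 to -2.61 within genes and 13.7% to 13.9% below 1. The 5' class ranged from 69.5% to 76.2%, 10.6 to 11.03, 62.4% to 79.3%, -0.54 to -0.29 and 0.990% to 1.22%. Where these values moved, the cause was not tested. No paired analysis was possible because IP and input are deposited only as their ratio within each mouse, and no result comes from a test. DRACH within 5 bases in place of 2 left the members' counts at 0 and 1. Boundaries of coding transcripts were not tried, since no exon annotation of the build was used. Depth is unknown, and with 82 to 101 members per mouse the 5' shares carry wide intervals.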
